A study of Homo sapiens with 12 samples.

Results

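Rhosin is a small molecule that binds the GTPase RhoA and blocks its activation by guanine nucleotide exchange factors. Its effect on transcript levels was measured in 3 gastric cancer cell lines as the difference between the arrays titled Rhosin and the arrays titled DMSO, the solvent. These are 6 of the 12 arrays of the series. Each of the lines AGS, MKN1 and SNU601 had 1 Rhosin array and 1 DMSO array, so the difference was taken within each line and the 3 lines served as the replicates. The other 6 arrays held the same lines with JK136 or JK139, compounds known here only by their code names. All lines were grown in RPMI medium with fetal calf serum. The labels state no dose and no time of exposure, and they name no replicate cultures of a line. A p-value here therefore rests on how treatment differences vary from line to line, pooled over all 4 treatments, and not on a spread between cultures. Differences in level between the lines are taken out by the line term of the fit.

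RhoA cycles between an inactive GDP-bound and an active GTP-bound form. Exchange factors load it with GTP, and GTPase-activating proteins and dissociation inhibitors return or hold it in the inactive form. Active RhoA drives formins and the ROCK kinases, which build actin filaments and contract them, and actin assembly in turn releases the cofactors that switch on targets of the transcription factor SRF and of YAP and TAZ. None of these protein states was measured here, since the arrays hold transcript levels alone.

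All levels below are log2 RMA values (RMA is a robust average over the probes of a transcript cluster after quantile normalization), and all differences are Rhosin minus DMSO on that scale unless another is named. A value of 1 is a doubling of signal. Array medians lay between 4.14 and 4.2. Arrays of the same line correlated with r between 0.978 and 0.988 over all clusters, and across lines r lay between 0.927 and 0.960. The keratin gene KRT18 was high in all lines (9.57 to 10.85). EPCAM, an adhesion protein of epithelial cells, lay between 10.0 and 10.31 in AGS and SNU601 and between 6.23 and 6.73 in MKN1. The epithelial splicing factor ESRP1 lay between 3.9 and 4.42 in MKN1, under the 4.61 used as the filter on mean levels. MKN1 had the mesenchymal genes VIM (8.12 to 8.47) and FN1 (9.49 to 9.68) and the stromal gene LUM (8.19 to 9.06), which lay under 4.61 in the other lines. DCN, another stromal gene, lay under that level on all 12 arrays, MKN1 included (highest 2.39). The monocyte gene CD14 reached 4.97 in MKN1, and the leukocyte gene TYROBP (highest 4.49) and the endothelial gene PECAM1 (highest 4.18) lay under the filter level on all 12 arrays. CDH1, ELF3, CDH2, PTPRC, CD3E and CDH5 matched no cluster by symbol and were not analysed here.

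Few genes with a symbol differed in the same way in all 3 lines. Of 8930 genes tested with limma, 0 (0%) had an adjusted p under 0.05 for Rhosin against DMSO. The smallest adjusted p was 0.190, shared by 6 genes: TIPARP, PGAM4, MT1X, GRAPL, ADRA2C and the microRNA gene MIR152. At an unadjusted p under 0.05 stood 262 genes that were higher (2.93%) and 298 that were lower (3.34%). The median 95% confidence interval of a difference reached 0.24 to each side, so smaller differences could not be told from 0 in a typical gene. With 3 pairs, an exact two-sided sign-flip test of a single gene cannot give a p below 0.25.

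By size alone, 26 genes (0.291%) were higher by at least 0.32 (log2) in each of the 3 lines, and 11 (0.123%) were lower by at least as much in each. At 1.5-fold in each line, CEACAM5 was the sole higher gene and 0 genes were lower. These counts leave out the clusters without a symbol, some of which differed more. Cluster 16811684 was higher by 3.81, 1.06 and 4.78 in AGS, MKN1 and SNU601. Cluster 16706421 was lower, at −1.45, −1.04 and −1.15. Mean differences lay above 0 in 45% of genes and below 0 in 55%. Differences were above 0 in all 3 lines for 12% of genes and below 0 in all 3 for 14.3%. Counts over gene lists are read beside these shares.

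**Figure D1:**
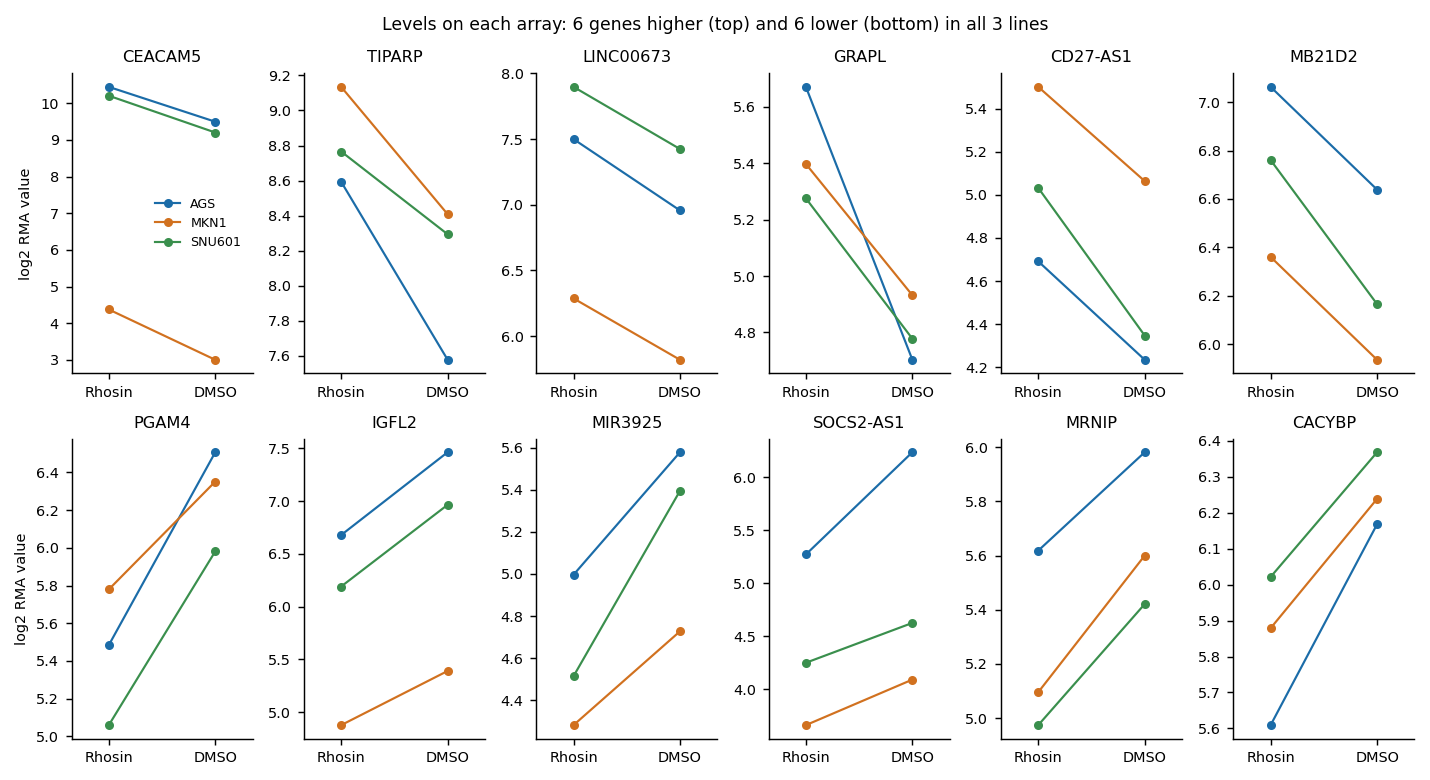
The log2 RMA value on each Rhosin array (left of a panel) and DMSO array (right) is shown for 6 genes that were higher and 6 that were lower in all 3 lines, with 1 line and colour per cell line. CEACAM5 differs by 0.95, 1.37 and 1.0 in AGS, MKN1 and SNU601, and PGAM4 by −1.02, −0.57 and −0.92. Every line slopes the same way within a panel.

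TIPARP had the smallest unadjusted p of all tested genes. It codes for a mono-ADP-ribosyltransferase that is induced by the aryl hydrocarbon receptor, a ligand-activated transcription factor, and that in turn represses this receptor. Its level was 8.59 with Rhosin against 7.58 with DMSO in AGS, 9.13 against 8.41 in MKN1, and 8.77 against 8.29 in SNU601. Each Rhosin array exceeded all 3 DMSO arrays. The mean difference was 0.74 ± 0.12, or 1.67-fold, with a limma adjusted p of 0.190. The ± here and below is the standard error (SE) of the limma fit to all 12 arrays, not that of the 3 line differences alone. With JK136 the gene differed from DMSO by 0.02, and with JK139 by 0.02.

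The promoter of TIPARP is shown because it holds the DNA element of the aryl hydrocarbon receptor. RefSeq (GRCh38.p14) lists 3 promoters of the gene. The 250 bases before the most upstream start, chr3:156674340-156674589 on the plus strand, hold the receptor's core motif GCGTG at 2 places. Both lie on the minus strand, at −208 and −142 counted from the start, and capitals mark them as CACGC.
TIPARP: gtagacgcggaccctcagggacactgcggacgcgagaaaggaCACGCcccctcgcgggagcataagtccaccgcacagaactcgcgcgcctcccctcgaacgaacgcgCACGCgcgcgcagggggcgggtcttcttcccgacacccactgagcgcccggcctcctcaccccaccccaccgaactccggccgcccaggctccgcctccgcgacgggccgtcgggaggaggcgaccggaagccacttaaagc
The other 2 promoters of the gene hold 0 of these motifs. The motif is common, since 36.5% of all 35116 RefSeq promoters of 300 bases hold it on one strand or the other, and a match does not show that the receptor binds there.

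Of 16 listed targets of the aryl hydrocarbon receptor, 4 were tested and 4 had a mean difference above 0. TIPARP is among the 4 and was picked for its small p, so its part in this count is no separate result. The median of the 4, TIPARP included, was 0.38, against −0.015 over all genes. In single lines it was 0.42, 0.37 and 0.39 in AGS, MKN1 and SNU601. Besides TIPARP these were EREG, a growth factor of the EGF family (0.43 ± 0.15), STC2, a secreted glycoprotein (0.33 ± 0.19), and NFE2L2, the antioxidant regulator NRF2 (0.18 ± 0.11). The limma adjusted p was at least 0.708 for these last 3. CYP1A1, CYP1A2, CYP1B1 and AHRR, the receptor's best-known targets, matched no cluster by symbol and were not analysed here. EREG was at 3.91 in AGS and 3.85 in SNU601 with Rhosin, under the filter level, and reached 8.83 against 8.21 in MKN1. In MKN1 it was also above DMSO with the other compounds, at 8.85 with JK136 and 8.62 with JK139.

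CEACAM5, carcinoembryonic antigen, is a membrane glycoprotein of gut epithelium. It measured 10.45 with Rhosin against 9.50 with DMSO in AGS, 10.21 against 9.20 in SNU601, and 4.37 against 3.0 in MKN1. In AGS and SNU601 the gene was strongly expressed, while both MKN1 values lay under the filter level. Its mean difference was 1.11 ± 0.27 (2.16-fold), with a limma adjusted p of 0.532. Against DMSO, its mean difference was −0.26 with JK136 and 0.16 with JK139, but the lines went opposite ways. With JK136 it differed by −1.32, 0.12 and 0.42 in AGS, MKN1 and SNU601, and with JK139 by −0.47, 0.50 and 0.45. Other genes of intestinal epithelium were mixed. Of the 7 tested members of that list besides CEACAM5, 5 lay higher and 2 lower, with a median of 0.12. ANPEP, an aminopeptidase, differed by 0.37 ± 0.16, TFF3, a trefoil peptide, by 0.20 ± 0.10, and VIL1, an actin-bundling protein of microvilli, by −0.45 ± 0.22.

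The other genes that were higher in all 3 lines include enzymes, a cytokine and noncoding RNAs. DHRS3, which reduces retinal to retinol, measured 5.61 with Rhosin against 5.19 with DMSO in AGS, 7.24 against 6.51 in MKN1, and 6.86 against 6.23 in SNU601. GDF15, a secreted stress cytokine of the TGF-beta family, measured 10.62 against 10.07 in AGS, 6.07 against 5.03 in MKN1, and 8.08 against 7.69 in SNU601. AADAC, an esterase of the endoplasmic reticulum, had differences of 0.42, 0.64 and 0.52 in AGS, MKN1 and SNU601. In AGS it lay far under the filter level, at 2.48 with Rhosin against 2.07 with DMSO. GDF15 and AADAC were also higher with JK136 than with DMSO, by 0.70 ± 0.17 and 0.67 ± 0.15, and near DMSO with JK139 (0.07 and 0.05). The GDF15 difference was 0.43 without the MKN1 DMSO array. GRAPL, an adaptor-like gene, had a mean difference of 0.64 ± 0.11, MB21D2 of 0.48 ± 0.09, and the noncoding genes LINC00673 and CD27-AS1 of 0.49 ± 0.12 and 0.53 ± 0.13. Among these, MB21D2 had a limma adjusted p of 0.197 and GRAPL of 0.190.

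Among the named genes that were higher or lower in all 3 lines, 3 were microRNA genes. MIR152 measured 5.61 with Rhosin against 4.83 with DMSO in AGS, 5.30 against 4.88 in MKN1, and 5.26 against 4.64 in SNU601. Its mean difference was 0.61 ± 0.11 with a limma adjusted p of 0.190. MIR4486 was higher by 0.48 ± 0.15 and MIR3925 lower, at −0.64 ± 0.15, with adjusted p of 0.643 and 0.532. On the Rhosin and DMSO arrays all 3 lay between 4.28 and 5.61, and MIR3925 was as low with JK136 (−0.64 ± 0.15 against DMSO). The arrays measure the transcript of the microRNA gene and not the mature RNA. The mature sequences (RefSeq, GRCh38.p14) are shown to tell the 3 apart, with the seed, bases 2 to 8, in capitals. No seed is shared between them.
miR-152-3p: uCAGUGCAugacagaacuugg
miR-4486: gCUGGGCGaggcuggca
miR-3925-5p: aAGAGAACugaaaguggagccu

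Of the genes that were lower in all 3 lines, PGAM4 had the largest mean difference. It measured 5.48 with Rhosin against 6.51 with DMSO in AGS, 5.78 against 6.35 in MKN1, and 5.06 against 5.98 in SNU601. Each Rhosin array lay below all 3 DMSO arrays, with a mean difference of −0.84 ± 0.14 and a limma adjusted p of 0.190. PGAM4 is a near-identical copy of the glycolytic gene PGAM1, so its probes may also measure PGAM1 transcripts, and the value is uncertain for that reason. The cluster of PGAM1 itself differed by −0.01 ± 0.13. PMS2P4 (−0.45 ± 0.14), a pseudogene copy of PMS2, carries the same uncertainty.

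MT1X, a metallothionein that binds zinc and copper, measured 6.30 with Rhosin against 7.06 with DMSO in AGS, 8.17 against 8.49 in MKN1, and 6.57 against 7.20 in SNU601. The gene was lower in each line, but the line MKN1 stood above the others with either treatment, so the groups overlapped. Its mean difference was −0.57 ± 0.10 (limma adjusted p of 0.190), and it was −0.21 with JK136 and −0.27 with JK139. The rest of that list differed less. Of its 6 other tested members 4 lay lower, with a median of −0.12, MT2A at −0.26 ± 0.14 and MT1E at −0.25 ± 0.17. Metallothionein genes are closely related in sequence, so signal may pass between members.

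IGFL2, a gene of the insulin-like growth factor-like family, measured 6.68 with Rhosin against 7.46 with DMSO in AGS, 4.88 against 5.39 in MKN1, and 6.19 against 6.96 in SNU601. KLK7, a secreted serine protease, had differences of −0.95, −0.56 and −0.34 in AGS, MKN1 and SNU601. CACYBP, a calcyclin-binding protein linked to ubiquitin ligases, measured 5.61 against 6.17 in AGS, 5.88 against 6.24 in MKN1, and 6.02 against 6.37 in SNU601, with every Rhosin array below every DMSO array. Its mean difference of −0.42 ± 0.09 had a limma adjusted p of 0.448. MRNIP, a protein that interacts with a DNA repair complex, was lower by a similar amount (−0.44 ± 0.09, adjusted p 0.293). The antisense gene SOCS2-AS1, YY1AP1 and ZSCAN23 had mean differences of −0.59, −0.49 and −0.43. In MKN1, SOCS2-AS1 lay under the filter level, at 3.66 with Rhosin against 4.09 with DMSO. YY1AP1 stood just inside the size rule, at −0.323 in AGS, and its mean difference was −0.28 without the MKN1 Rhosin array. Its neighbour in size, ZSCAN23, stood just outside it, at −0.3217 in SNU601.

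No difference was detected in the transcripts of Rhosin's target and its closest relatives. RHOA measured 10.23 with Rhosin against 10.10 with DMSO in AGS, 10.04 against 10.02 in MKN1, and 10.02 against 10.07 in SNU601. Its mean difference was 0.03 ± 0.08, with a 95% interval from −0.15 to 0.22. RHOB, a short-lived relative that is itself an early-response gene, had differences of 0.38, 0.08 and 0.08 in AGS, MKN1 and SNU601, and RHOC had −0.01, −0.06 and −0.13. The limma adjusted p was at least 0.897 for all 3. Of 10 tested GTPases of the RhoA family, 6 lay higher and 4 lower, with a median of 0.02. RHOF, which drives filopodia, had 0.31 ± 0.12 with a difference above 0 in each line, and the atypical member RHOBTB2 had −0.28 ± 0.11 with a difference below 0 in each line. A second cluster of RHOBTB2 gave 0.11, 0.10 and −0.24 in AGS, MKN1 and SNU601. RHOBTB3 had 0.35 ± 0.18, which came mainly from SNU601, where the level was 3.15 with Rhosin against 2.31 with DMSO and lay under the filter level.

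Regulators of the GTPases had no common direction. Of 17 exchange factors 10 lay higher and 7 lower (median 0.02), with single genes between −0.27 (ARHGEF3) and 0.20 (ARHGEF10L). Of 18 GTPase-activating proteins and dissociation inhibitors, 11 lay higher and 7 lower (median 0.04). ARHGAP29, a GTPase-activating protein for RhoA, was the exception in size, with 6.53 with Rhosin against 5.49 with DMSO in AGS. It stood at −0.04 in MKN1 and −0.02 in SNU601, and its mean difference was 0.33 ± 0.20. Effectors lay lower for 8 of 11 tested members, and their median was −0.09. MSN, moesin, which ties actin to the membrane, had 8.98 against 9.23 in AGS, 9.71 against 9.82 in MKN1, and 8.90 against 9.16 in SNU601. RTKN2 (−0.22 ± 0.11), the kinase PKN3 (−0.19 ± 0.11) and the formin DIAPH3 (−0.17 ± 0.10) were lower in AGS and SNU601 and near 0 in MKN1. ROCK1, ROCK2 and the myosin genes MYL9 and MYH9 matched no cluster by symbol and were not analysed here. Of the 4 lists, 0 genes passed.

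Targets downstream of actin assembly were split in their means. Of 13 tested targets of SRF and its cofactor MRTF, 8 lay higher and 5 lower, with a median of 0.12, which was 0.22, 0.07 and near 0 in AGS, MKN1 and SNU601. In AGS alone 12 of the 13 lay higher, and in MKN1 and SNU601 7 and 6 did. FHL2, a LIM-domain protein, had 0.24 ± 0.10, and TGFB1I1, a focal adhesion protein, had 0.26 ± 0.12, both above 0 in each line. In SNU601 the actin-binding genes CALD1 and TPM1, chosen after their values were seen, stood at −0.66 and −0.48. Of 13 targets of YAP and TAZ, 8 lay higher and 5 lower, with a median of 0.07 that was −0.07 without the line AGS. ANKRD1, one of the best-known of these targets, measured 5.06 with Rhosin against 6.87 with DMSO in SNU601, 5.20 against 5.57 in MKN1, and 9.20 against 9.16 in AGS. FJX1, another member, was higher in SNU601, at 4.34 against 3.28. In that line FJX1 was also above DMSO with JK136 (4.12) and JK139 (4.15), and each of these levels lay under the filter level. CCN2, also chosen after its values were seen, had 0.35, −0.03 and −0.21 in AGS, MKN1 and SNU601. All of these had a limma adjusted p of at least 0.708.

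**Figure D2:**
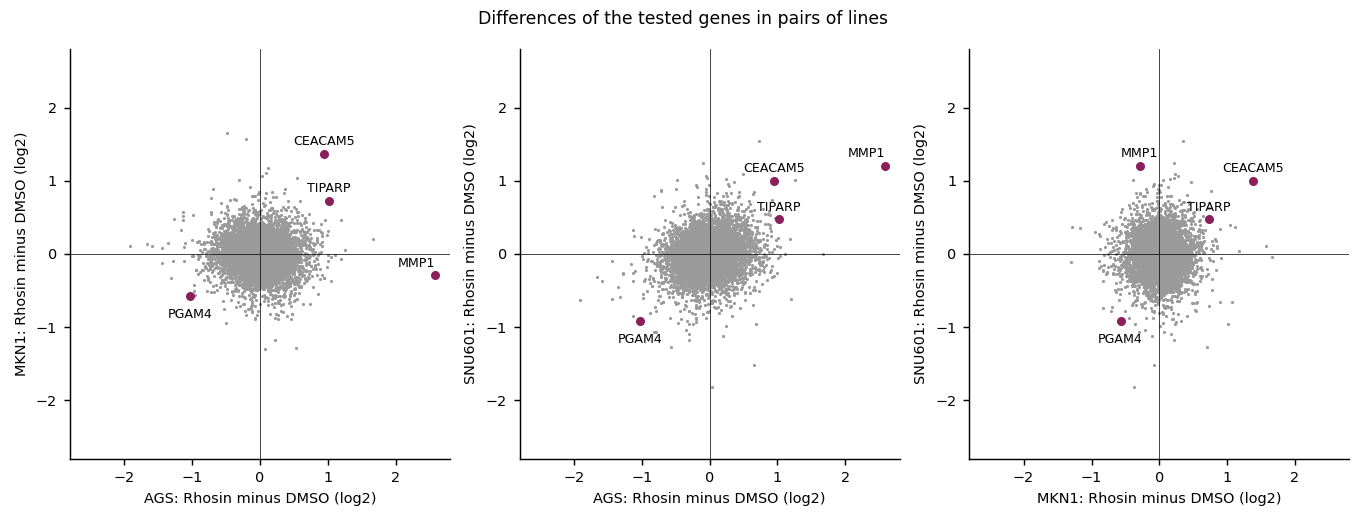
Each point is a tested gene, placed by its Rhosin minus DMSO difference (log2) in 2 of the 3 lines, with CEACAM5, TIPARP, PGAM4 and MMP1 marked. The clouds are close to round: the correlation across genes was −0.05 for AGS with MKN1, 0.20 for AGS with SNU601, and −0.01 for MKN1 with SNU601.

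The Rhosin minus DMSO differences of the lines had little in common. Across 8930 genes the differences in AGS and SNU601 correlated with r = 0.20, those in AGS and MKN1 with r = −0.05, and those in MKN1 and SNU601 with r = −0.01. These values are descriptions over genes, which are not independent replicates, and each line had its own DMSO array. With 1 pair of arrays per line, the part of variation between arrays in these correlations was not tested. AGS had the widest spread of differences, with an SD of 0.28 over genes, against 0.21 in MKN1 and 0.23 in SNU601. In AGS, 178 genes were at least 1.5-fold higher and 201 at least 1.5-fold lower. In MKN1 these counts were 71 and 74, and in SNU601 103 and 100. A single pair of arrays has no error of its own, so the counts within a line are given as values without a test. JK136 gave a similar count in AGS (370 genes either way, against 379 with Rhosin), and JK139 gave 120. In MKN1, JK136 gave 158 and JK139 113, against 145 with Rhosin. In SNU601, JK136 gave 127 and JK139 108, against 203 with Rhosin.

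Immediate-early genes, which are switched on quickly by growth factor signals and stress, lay higher as a group. Of 21 tested members, 20 had a mean difference above 0, against 45% of all genes, and 10 were higher in all 3 lines. The median was 0.29, with 0.65, 0.06 and 0.19 in AGS, MKN1 and SNU601. At an unadjusted p under 0.05 stood 8 members, all higher, and 0 had an adjusted p under 0.05. In AGS, 12 of the 21 were at least 1.5-fold higher, against 0 in MKN1 and 1 in SNU601. Within AGS the list's median was −0.07 with JK136 and −0.01 with JK139. In MKN1 it was 0.09 with JK136 and −0.07 with JK139. In SNU601 it was 0.16 and 0.12, so there the other compounds also lay above DMSO. IER5 was the sole member below 0 (−0.05 ± 0.10).

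The AP-1 subunits differed most in AGS. FOSL1 measured 7.59 with Rhosin against 6.40 with DMSO in AGS, 7.73 against 7.27 in MKN1, and 7.0 against 6.79 in SNU601. JUNB measured 7.98 against 7.17 in AGS, 8.38 against 8.24 in MKN1, and 7.46 against 6.91 in SNU601. FOSB measured 5.87 against 5.33 in AGS, 5.94 against 5.79 in MKN1, and 5.82 against 5.38 in SNU601. All 3 genes were higher in each line, with mean differences of 0.62 ± 0.18, 0.50 ± 0.17 and 0.37 ± 0.13 and limma adjusted p of 0.563, 0.694 and 0.694. A further, dimmer cluster of FOSB gave 0.13, −0.46 and −0.13 in AGS, MKN1 and SNU601, so the 2 clusters disagreed outside AGS. IER3, an apoptosis regulator induced by ERK, had 0.43 ± 0.15 and was higher in each line, while its dimmer clusters gave 0.40, −0.22 and 0.05 in AGS, MKN1 and SNU601. With JK136, FOSL1 also lay above DMSO, by 0.37 ± 0.18, while JUNB differed by −0.16 ± 0.17 and FOSB by 0.05 ± 0.13.

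EGR1, a zinc finger transcription factor of this group, had the second highest difference of all tested genes in AGS. It measured 9.72 with Rhosin against 8.05 with DMSO in AGS, 9.78 against 9.57 in MKN1, and 7.84 against 7.84 in SNU601. In AGS its level was 7.06 with JK136 and 8.58 with JK139, so the other treatments lay on either side of DMSO. A second cluster of the gene gave 1.19, 0.06 and −0.16 in AGS, MKN1 and SNU601, the same order of lines. The mean difference was 0.63 ± 0.33, with a limma adjusted p of 0.809.

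The EGR1 promoter is shown because its CArG boxes bind SRF, the factor that links actin and ERK signals to immediate-early genes. A CArG box is CC, 6 bases that are A or T, and GG, and it reads as such on both strands. The 250 bases before the start, chr5:138465229-138465478 on the plus strand (GRCh38.p14), hold 2 of them, at −105 and −83 counted from the start, in capitals.
EGR1: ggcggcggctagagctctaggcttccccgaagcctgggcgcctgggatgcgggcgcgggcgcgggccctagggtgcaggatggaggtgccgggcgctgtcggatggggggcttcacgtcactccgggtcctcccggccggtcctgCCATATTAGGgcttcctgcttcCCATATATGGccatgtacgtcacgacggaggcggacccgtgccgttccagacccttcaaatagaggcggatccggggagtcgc
Of all RefSeq promoters of 300 bases 1.29% hold a CArG box. The promoters of FOS and JUNB held 0 in the same window, which says nothing about sites farther away.

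Feedback inhibitors and outputs of the ERK pathway also had their highest median in AGS, with 12 of 16 tested members higher and a median of 0.21 (0.44, 0.07 and near 0 in AGS, MKN1 and SNU601). LIF, a cytokine of the IL-6 family, measured 6.51 with Rhosin against 5.91 with DMSO in AGS, 4.82 against 4.52 in MKN1, and 6.42 against 5.83 in SNU601. Its mean difference was 0.50 ± 0.12, with a limma adjusted p of 0.532. SPRY4, a feedback inhibitor, was higher by 0.68 in AGS and 0.44 in MKN1 and stood at −0.02 in SNU601. The phosphatase gene DUSP1 and the EGF receptor ligand HBEGF, chosen after their values were seen, stood at 1.04 and 1.11 in AGS and between −0.37 and 0.09 in the other lines. The inhibitors SPRY2 and DUSP10, also chosen after their values were seen, were lower in AGS, at −0.52 and −0.48.

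**Figure D3:**
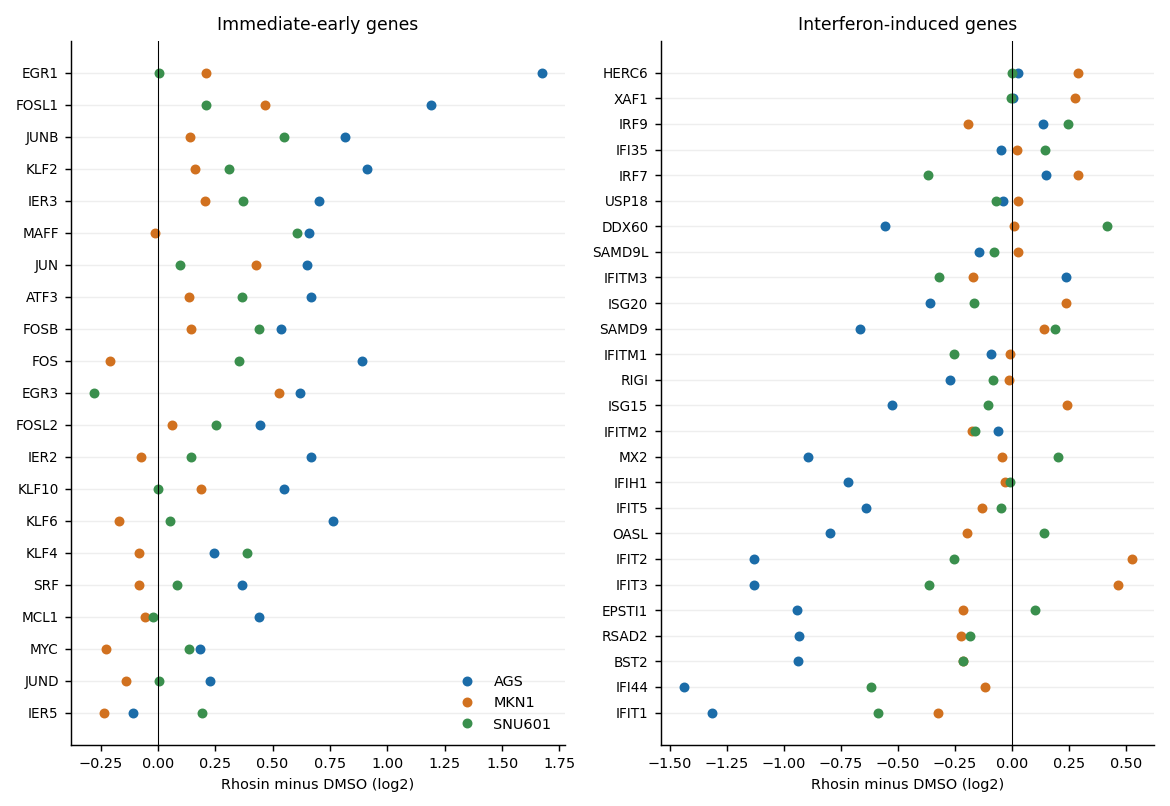
The Rhosin minus DMSO difference (log2) of each tested immediate-early gene (left) and interferon-induced gene (right) is given for AGS, MKN1 and SNU601, ordered by the mean of the 3. AGS points lie right of 0 for 20 of 21 immediate-early genes and left of 0 for 21 of 26 interferon-induced genes. The medians of MKN1 are 0.06 and −0.01, and those of SNU601 are 0.19 and −0.08.

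Interferon-induced genes, which code for antiviral proteins, lay lower as a group. Of 26 tested members 21 had a mean difference below 0, against 55% of all genes, and 9 were lower in all 3 lines, with a median of −0.13. At an unadjusted p under 0.05 stood 1 member, IFI44, which was lower, and 0 had an adjusted p under 0.05. In single lines the median was −0.54, −0.01 and −0.08 in AGS, MKN1 and SNU601. In AGS, 12 of the 26 were at least 1.5-fold lower, against 0 in MKN1 and 2 in SNU601. IFI44 measured 4.34 with Rhosin against 5.79 with DMSO in AGS, 5.13 against 5.25 in MKN1, and 5.94 against 6.56 in SNU601. IFIT1, which binds foreign RNA, measured 5.49 against 6.80 in AGS, 3.49 against 3.82 in MKN1, and 4.72 against 5.30 in SNU601. Both were lower in each line, with mean differences of −0.73 ± 0.29 and −0.74 ± 0.37, and limma adjusted p of 0.720 and 0.801. In MKN1 both IFIT1 values lay under the filter level, and in AGS the IFI44 value with Rhosin did too. The IFIT1 difference was −0.30 without the AGS Rhosin array. BST2, tetherin, had 4.28 against 5.21 in AGS, and EPSTI1 had 6.46 against 7.40. IFIT2 and IFIT3, chosen after their values were seen, stood at −1.13 each in AGS and at 0.52 and 0.46 in MKN1.

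The interferon list was also read with the other compounds. Its median difference from DMSO in AGS was 0.62 with JK136 and −0.04 with JK139. Against the mean of JK136 and JK139, the median over the list with Rhosin was −0.33, and IFI44 differed by −0.92 ± 0.25 (limma adjusted p of 0.374).

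The IFIT1 promoter is shown because its interferon-stimulated response elements are the sites at which interferon switches the gene on. The 250 bases before the start, chr10:89392373-89392622 on the plus strand (GRCh38.p14), hold the element (GAAA, any 2 bases, GAAA) at 2 places on the minus strand, beginning at −116 and −103 counted from the start. Capitals mark them.
IFIT1: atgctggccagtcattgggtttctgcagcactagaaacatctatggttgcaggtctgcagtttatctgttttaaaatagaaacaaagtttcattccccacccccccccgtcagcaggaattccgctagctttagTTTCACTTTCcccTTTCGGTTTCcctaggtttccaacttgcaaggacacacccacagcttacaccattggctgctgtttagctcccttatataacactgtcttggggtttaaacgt
The element stands in 3.57% of all RefSeq promoters of 300 bases. Each listed promoter of IFI44, BST2 and EPSTI1 held it too, with 2 overlapping copies in BST2. Promoters of FOSL1 and IER3 were not analysed here.

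Heat shock chaperones lay lower for 8 of 10 tested members, and their median was −0.12 (−0.28, −0.02 and −0.14 in AGS, MKN1 and SNU601). HSPB1, a small chaperone that stabilises actin, measured 7.98 with Rhosin against 8.75 with DMSO in AGS, 10.61 against 10.82 in MKN1, and 9.83 against 9.99 in SNU601. HSPH1 had 8.25 against 8.87 in AGS and smaller gaps in the other lines. Their limma adjusted p was 0.708 and 0.807. HSPA1A is one of several near-identical copies and its value (−0.22 ± 0.16) is uncertain.

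Genes of DNA replication and G1/S lay lower for 24 of 26 tested members, and their median was −0.13, or −0.40, 0.01 and −0.02 in AGS, MKN1 and SNU601. Without the line AGS it was 0.003. CLSPN, a checkpoint adaptor, measured 6.33 with Rhosin against 6.95 with DMSO in AGS, 7.69 against 7.71 in MKN1, and 6.48 against 6.65 in SNU601. MCM10, a replication initiation factor, had −0.51, 0.06 and −0.18 in AGS, MKN1 and SNU601. Mitosis and spindle genes were lower for 25 of 32 members with a median of −0.11 (−0.19, 0.03 and −0.12 in AGS, MKN1 and SNU601). The kinesin KIF18A had −0.39, 0.03 and −0.51 in AGS, MKN1 and SNU601, and cyclin B1, CCNB1, had −0.35, −0.09 and −0.24. Housekeeping genes also lay lower in AGS, with 13 of 14 members below 0 in the mean and a median of −0.16, 0.01 and −0.04 in AGS, MKN1 and SNU601. Over all tested genes in AGS, the 25% with the highest levels had a median of −0.06 and the 25% with the lowest levels 0.05. The part of level in the list medians was not tested. In bulk RNA, fewer cells that express a gene and less RNA per cell cannot be told apart.

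**Figure D4:**
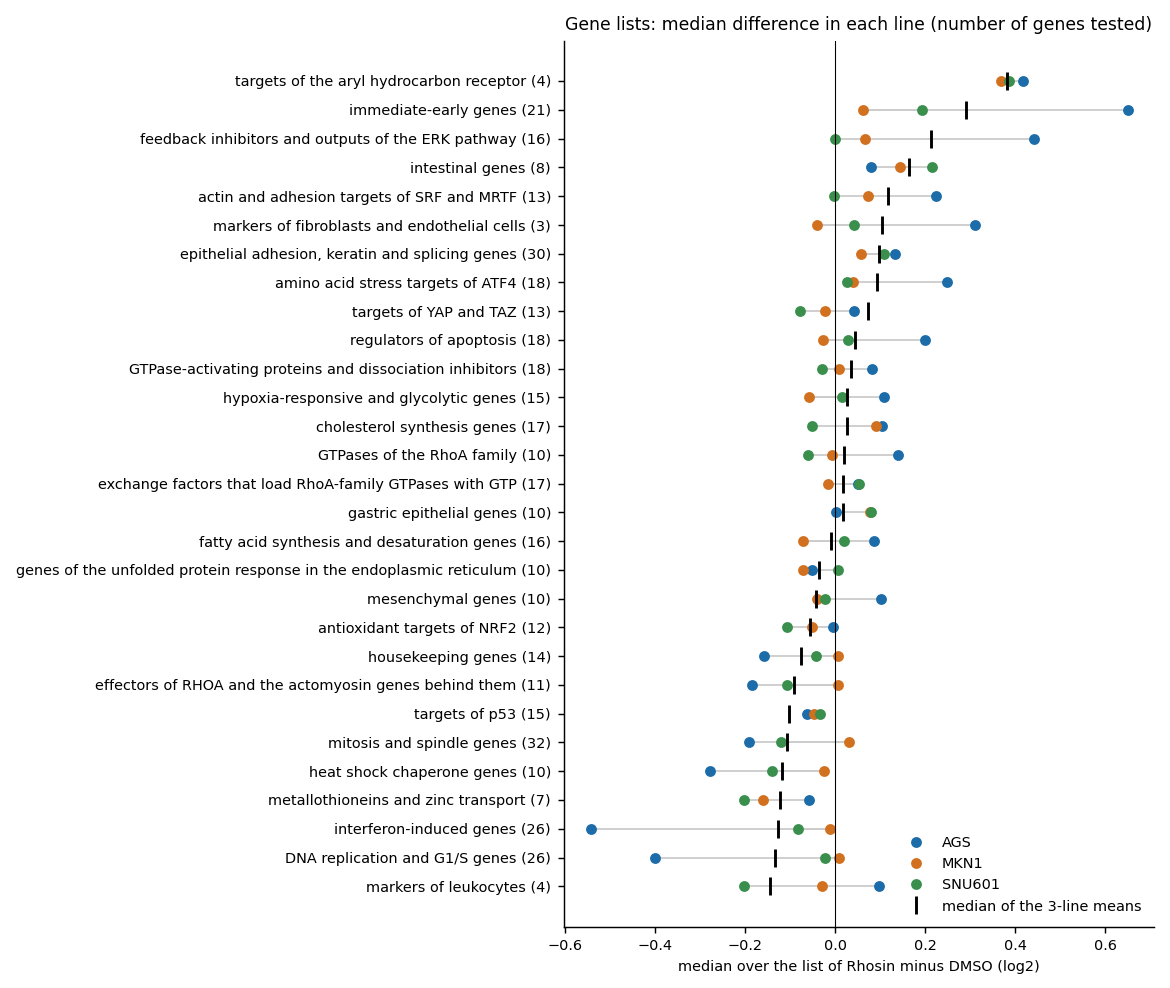
Each row is a gene list, with the number of its genes tested in brackets. Coloured points give the median over the list of the Rhosin minus DMSO difference (log2) in AGS, MKN1 and SNU601, and the black mark is the median of the means of the 3 lines. AGS holds the outermost point of the immediate-early (0.65), interferon (−0.54), ERK pathway (0.44) and replication lists (−0.40).

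Stress and metabolic lists were nearer to 0. Amino acid stress targets of ATF4 lay higher for 14 of 18 tested members, and their median was 0.09. DDIT4, an inhibitor of mTOR signalling, measured 9.62 with Rhosin against 8.70 with DMSO in AGS, 6.51 against 6.22 in MKN1, and 6.61 against 5.87 in SNU601 (0.65 ± 0.37). SESN2, a stress sensor of amino acids, had 0.82, −0.21 and 0.41 in AGS, MKN1 and SNU601. Targets of p53 lay lower for 10 of 15 tested members, and their median was −0.10. GDF15 stood apart from the list as its highest member. AEN, a p53-induced nuclease, had −0.28 ± 0.13 and SESN1 −0.38 ± 0.19. Among genes of the unfolded protein response (median −0.04) the secreted factor MANF had −0.26 ± 0.10, and antioxidant targets of NRF2 lay lower in 9 of 12 members (median −0.06), with PRDX1, a peroxiredoxin, at −0.27 ± 0.12.

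Among hypoxia-responsive genes (median 0.03, with 9 of 15 higher), NDRG1 measured 5.63 with Rhosin against 4.72 with DMSO in AGS, 6.86 against 6.55 in MKN1, and 6.76 against 6.52 in SNU601. ANGPTL4, an inhibitor of lipoprotein lipase, was higher in each line as well, and the mean differences of these genes were 0.49 ± 0.13 and 0.46 ± 0.12. With JK136, NDRG1 differed from DMSO by 0.32 ± 0.13 and ANGPTL4 by 0.15 ± 0.12. Of fatty acid genes 7 of 16 lay higher (median −0.01), with the desaturase FADS1 at 0.42 ± 0.10, and it was also higher with JK136 (0.38) and JK139 (0.28). These 3 genes had a limma adjusted p of 0.532. Cholesterol synthesis genes lay higher for 10 of 17 tested members, and their median was 0.03. Apoptosis regulators lay higher for 13 of 18, with a median of 0.05. The inhibitors of cell death CFLAR and XIAP and the promoters of cell death BAK1 and BID stood at 0.23, 0.19, 0.29 and 0.18.

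Epithelial genes lay higher for 20 of 30 tested members, and their median was 0.10 (0.13, 0.06 and 0.11 in AGS, MKN1 and SNU601). The keratin KRT8 measured 6.52 with Rhosin against 6.13 with DMSO in AGS, 6.71 against 6.69 in MKN1, and 6.72 against 6.21 in SNU601. KRT80 had 0.32 ± 0.13 and the splicing factor ESRP2 0.21 ± 0.09, both above 0 in each line. ESRP1 had 0.42 in AGS, 0.52 in MKN1, where it lay under the filter level, and −0.01 in SNU601. Mesenchymal genes lay higher for 4 of 10 tested members, and their median was −0.04. Neither VIM (−0.03 ± 0.13) nor FN1 (−0.05 ± 0.10) differed beyond its error. Gastric genes were split evenly, 5 higher and 5 lower, with a median of 0.02, and CAPN8, a stomach calpain, at 0.26 ± 0.10. In the short lists of other cell types, 1 of 4 leukocyte markers and 2 of 3 fibroblast and endothelial markers lay higher.

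Among the tested genes, which all carry a symbol, the widest differences were in single lines, and no difference between lines was tested. In AGS the highest difference was that of MMP1, a collagenase, with 8.52 with Rhosin against 5.94 with DMSO, a 6.0-fold gap. MMP1 was also higher in SNU601 (7.19 against 5.99) and not in MKN1, where it lay under the filter level with both. In AGS the other compounds gave 6.77 and 6.83, and in SNU601 JK136 gave 7.52, above the Rhosin array. Next after EGR1 came PIM1, a serine/threonine kinase, which measured 8.14 against 6.89 in AGS, 5.84 against 5.78 in MKN1, and 7.77 against 6.77 in SNU601. At the low end in AGS stood SOX2, a transcription factor of stomach progenitors, with 5.26 against 7.17, and it was lower in SNU601 as well (6.31 against 6.93). In AGS, SOX2 was 6.99 with JK136 and 7.12 with JK139, both close to DMSO. The antisense gene JAKMIP2-AS1 (5.85 against 7.44) and the small RNA gene SCARNA8 (7.76 against 9.19) were also lower in AGS, and SCARNA8 was at 8.05 with JK139.

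In MKN1 the highest differences were those of ZNF544, with 3.46 with Rhosin against 1.80 with DMSO and thus under the filter level, and of PTGS2, the inducible cyclooxygenase, with 6.98 against 5.41. ZNF544 measured 3.63 with JK136, above the Rhosin array, and 2.0 with JK139 in MKN1. PTGS2 measured 5.82 with JK136 and 5.48 with JK139 in that line, and its differences were −0.20 in AGS and 0.11 in SNU601. FOXQ1, a forkhead factor, had 5.24 against 4.06 in MKN1 and differed by at most 0.12 in the other lines. At the low end in MKN1 stood VIL1 (3.51 against 4.82) and CNTNAP3B (6.27 against 7.56). In SNU601 the highest difference was that of ADGRF1, an adhesion receptor coupled to G proteins, with 9.0 against 7.46, and this gene was higher in AGS (4.70 against 3.98) and MKN1 (5.17 against 4.83) too. Its mean difference was 0.87 ± 0.18, with a limma adjusted p of 0.367. HSD17B2, a steroid dehydrogenase (7.84 against 6.6), and PLAC8 (8.87 against 7.78) followed in SNU601. At the low end there stood ANKRD1, already given, and KLF7, a Krüppel-like factor, with 3.24 against 4.77. KLF7 measured 3.65 with JK136 and 4.07 with JK139 in SNU601, also below DMSO.

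**Figure D5:**
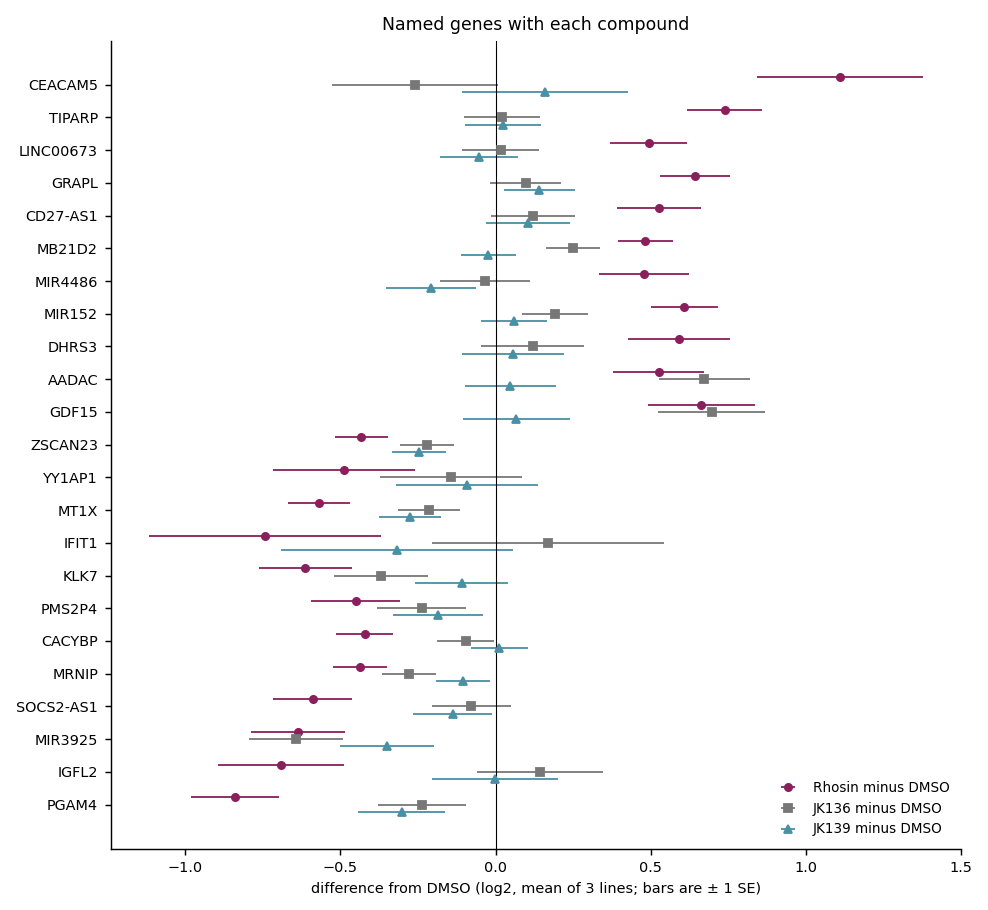
Differences from DMSO (log2, mean of 3 lines) are shown for Rhosin, JK136 and JK139 in the genes that were higher or lower in all 3 lines with Rhosin. Bars are ± 1 SE of the limma fit to all 12 arrays. The Rhosin points were chosen for their size and the 3 compounds share their DMSO arrays. JK136 lies beside Rhosin for AADAC, GDF15 and MIR3925, and near 0 for TIPARP.

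The Rhosin arrays were also set against the arrays of the other compounds, which use no DMSO array. The doses are not stated, so they cannot be said to match. Of 8930 genes, 0 (0%) had a limma adjusted p under 0.05 for Rhosin against the mean of JK136 and JK139, while 811 had an unadjusted p under 0.05. TIPARP differed by 0.72 ± 0.11, at an adjusted p of 0.0975. Its JK136 and JK139 arrays lay between 7.51 and 8.54, each below the Rhosin array of the same line. CEACAM5 differed by 1.16 ± 0.23 and PGAM4 by −0.57 ± 0.12, with adjusted p of 0.240 and 0.255. For CEACAM5 the JK136 and JK139 arrays lay below DMSO in AGS (8.18 and 9.03 against 9.50) and above it in the other lines. AADAC (0.17 ± 0.13) and MIR3925 (−0.14 ± 0.13) differed by about their error. The interval of a typical gene reached 0.21 to each side.

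Against the mean of DMSO, JK136 and JK139, the rest of the series, 0 genes (0%) had a limma adjusted p under 0.05, and 812 had an unadjusted p under 0.05. TIPARP missed the threshold narrowly, at 0.72 ± 0.10 with an adjusted p of 0.0501. GRAPL (0.56 ± 0.09) and MIR152 (0.53 ± 0.09) followed among the named genes, each at an adjusted p of 0.155. CEACAM5 (1.14 ± 0.22) and CACYBP (−0.39 ± 0.07) each had 0.172.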

How the data were processed

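Total RNA of 12 cultures was measured on Affymetrix Human Gene 2.0 ST arrays, 1 array for each of 3 lines and 4 treatments. The deposited values are on the log2 scale; the submitters' processing notes name RMA and Affymetrix Expression Console, with versions not given in the sources used here. RMA forces a common distribution on all arrays, so a shift of all genes together cannot be seen. Of 53617 transcript clusters 16098 carried 1 symbol in GEO's platform annotation, 37519 did not, and the cluster with the highest mean stood for each of 14884 symbols. Genes above the 40th percentile of mean level (4.61) were tested, 8930 in all. limma (version 3.58.1, R 4.3.3) was fitted to all 12 arrays with treatment and line as terms (6 residual degrees of freedom), and p-values were adjusted over all tested genes by Benjamini-Hochberg, with a threshold of 0.05. The fit was tested on simulated data. The pairing by line comes from the labels, since both arrays of a pair are the same cell line. The precision is limited by the number of arrays.

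Named genes were the 12 with the largest difference in the line that differed least, each way (1 of these is not reported here), the 5 highest and 5 lowest of each line, RHOA, RHOB and RHOC, and up to 4 of each of 29 lists by unadjusted p. Other names were chosen after their values were seen. The comparison, the members and the lists were chosen with earlier results of these data known. Alternatives were quantile normalization, median centring, other filters, every cluster, array weights, a trended robust prior, no line term, and leaving out arrays or lines. The Rhosin and DMSO arrays were also fitted alone.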

Additional observations from a re-analysis of the deposited data

Results flagged for a closer look

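Of 167 genes picked by the naming rule or named in the text, 12 were higher with Rhosin by at least 0.32 (log2) in 1 line and lower by at least as much in another. The difference between lines was not tested, since each line has 1 pair of arrays. KLF7 had Rhosin minus DMSO differences of 0.66 in AGS, −0.08 in MKN1 and −1.52 in SNU601, a spread between lines of 2.18. For ZNF544 they were −0.48, 1.66 and −0.04, a spread of 2.14, and for ZNF430 they were −0.58, 0.70 and −1.28, a spread of 1.98. The keratinocyte envelope gene SPRR2F stood at 1.19, −0.06 and −0.61, a spread of 1.81, and CNTNAP3B at 0.53, −1.28 and 0.37, also 1.81. The microRNA gene MIR3189 stood at 0.22, −1.17 and 0.35, a spread of 1.52, and EDAR, a receptor of the TNF receptor family, at 0.45, −0.89 and −0.10, a spread of 1.35. Some of these values rest on levels under the filter level. In MKN1, MIR3189 measured 2.10 with Rhosin against 3.27 with DMSO, and ZNF544 3.46 against 1.80. With Rhosin, KLF7 was at 3.24 in SNU601 and EDAR at 3.87 in MKN1. In the gene lists, IFIT2 stood at −1.13, 0.52 and −0.25, a spread of 1.66, and IFIT3 at −1.13, 0.46 and −0.37, a spread of 1.59. DUSP1 stood at 1.04, −0.37 and 0.09, a spread of 1.41, CALD1 at 0.02, 0.47 and −0.66, a spread of 1.14, and SPRY2 at −0.52, 0.49 and −0.42, a spread of 1.01. The 3 widest spreads were also read with the other compounds, against the same DMSO arrays. KLF7 in SNU601 differed by −1.11 with JK136 and −0.70 with JK139. ZNF544 in MKN1 differed by 1.83 and 0.20, and ZNF430 in SNU601 by 0.70 and −0.70.

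Clusters without a symbol were not part of the comparisons. Of 37519 such clusters 12937 lay above the filter level, and of these 60 (0.464%) were higher and 125 (0.966%) lower with Rhosin by at least 0.32 (log2) in all 3 lines. Cluster 16811684 measured 9.13 with Rhosin against 5.31 with DMSO in AGS, 5.33 against 4.27 in MKN1, and 8.76 against 3.98 in SNU601, a mean difference of 3.22. With JK136 it differed from DMSO by 0.12, 0.27 and 1.52, and with JK139 by 0.21, 0.19 and 0.77. Cluster 16678336 had a mean difference of 1.84, and with JK136 it also lay above DMSO in each line, by 0.87, 1.13 and 1.04. Among the lower clusters, 16706421 measured 4.88 against 6.33, 4.28 against 5.32 and 5.4 against 6.54, a mean difference of −1.21, and 16654909 had −1.15. Their genes are not named here.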

How the results depend on the processing

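For Rhosin against DMSO, 0 genes passed in all alternatives but the trended robust prior, which called 1 gene, TIPARP (limma adjusted p 0.0477). Against JK136 and JK139 that prior called 1 (TIPARP, 0.0126), and 2 genes passed at an adjusted p under 0.1. Against all other arrays, 2 genes passed under quantile normalization (TIPARP 0.0416), 1 with the 60th-percentile filter (0.0310), 1 with the trended robust prior (0.00543), and 2 at an adjusted p under 0.1. Without the line as replicate block, 0 genes passed for Rhosin against DMSO and the smallest adjusted p was 0.999935. In the fit to the Rhosin and DMSO arrays alone, CEACAM5 had a limma adjusted p of 0.0972, against 0.532 in the main fit. The 26 genes that were higher by at least 0.32 in every line became 27 under quantile normalization, 21 with median centring, 60 without a filter, 12 with the stricter filter, 93 over every cluster and 1 at 1.5-fold. The 11 lower genes became 5, 10, 37, 6, 136 and 0 in the same order. Asking for the difference in the lines left when 1 was left out gave 63 to 124 higher and 57 to 156 lower genes. Among named genes, 425 comparisons kept direction and side of the threshold, 1 gained a call, and 4 changed sign. RHOA ranged over single left-out arrays from −0.0191 to 0.0776, RHOB from −0.0548 to 0.296 and RHOC from −0.169 to 0.0755. RHOA was −0.0191 without the AGS Rhosin array and −0.0166 without the line AGS, RHOB −0.0548 without the AGS Rhosin array, and RHOC 0.0755 without the SNU601 Rhosin array. The cause was not tested. Of 29 list medians 10 changed sign under at least 1 alternative, among them the unfolded protein response (0.009 under quantile normalization), YAP and TAZ targets (−0.07 without AGS), replication (0.003 without AGS), exchange factors (−0.03 without MKN1) and leukocyte markers (0.06 without a filter). The other 5 were fatty acid, gastric, hypoxia and mesenchymal genes and the GTPase-activating proteins, all within 0.05 of 0 in the main setting. The share of genes that were higher was 53.5% under quantile normalization and 42.1% with centring. With 1 array per line and treatment, differences within a line have no error of their own.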
